A study of Mus musculus with 6 samples.

Results

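The trimethylation of histone H3 at lysine 4 (H3K4me3) was examined at the genes Tcf7 and Lef1 in 2 mouse lymphoid progenitor cell lines. All peaks from 100 kb upstream to 100 kb downstream of each gene were taken from the H3K4me3 peak list of each line, which gave 23 of the 35117 peaks of both lists, and the 2 genes were set beside all 21951 protein-coding genes of the annotation. Scid.adh.2C2 is a T-cell progenitor line of pro-T type, a subclone of a line that was derived from a tumor of CB17-Prkdc scid mice, and the other is an Abelson-transformed progenitor B line, called the progenitor B line here. Neither line received a treatment, and each was profiled by 2 H3K4me3 chromatin immunoprecipitation (ChIP) libraries and 1 input library, with the same antibody. Both are single transformed lines, so that lineage, transformation, strain and line cannot be told apart. The authors combined the replicates of each line into 1 peak list, which leaves no replicate error, and no difference between the lines was tested. The genes were chosen with the widths and fold enrichments of these lists known, and all values below are descriptions.

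H3K4me3 is deposited around active and poised transcription start sites (TSSs), usually over a short region, and at some genes that define a cell identity it spreads over several kilobases into the gene body. Tcf7 and Lef1 encode the high-mobility-group proteins TCF1 and LEF1, which bind the same DNA word at the target genes of the canonical Wnt pathway. They activate transcription together with β-catenin and repress it together with the Groucho/TLE corepressors. TCF1 is induced by Notch signaling at the entry into the T-cell lineage and opens chromatin there, while LEF1 acts in early T cells and in B-cell progenitors. Both genes make long proteins with an N-terminal β-catenin-binding domain and short proteins that lack it, which start at internal promoters.

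The label of each line was checked against marker genes. In Scid.adh.2C2, 8 of 8 pro-T markers and 1 of 8 progenitor B markers (Vpreb1) had a promoter peak, and in the progenitor B line these counts were 2 of 8 (Cd3d and Lck) and 8 of 8. Of all protein-coding genes, 45.5% had a promoter peak in Scid.adh.2C2 and 48.2% in the progenitor B line. The shares with one in that line alone were 3.28% and 5.96%. There were 15513 peaks in Scid.adh.2C2, with medians of 1542 bp for width and 20.3 for fold enrichment, and 19604 peaks in the progenitor B line, with medians of 1590.5 bp and 15.4. The fold enrichment is the authors' ratio of ChIP signal over local background at the highest point of a peak, its summit. Fold enrichments of both lines are given side by side, and the median of their ratio, Scid.adh.2C2 over progenitor B line, was 1.25 over all genes marked in both lines.

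The sequences below are those of the reference genome (RefSeq, GRCm38) at the points on which the results turn. They were read in the direction of transcription of the gene and are 5′ to 3′. Short words were searched on both strands, and each match is in capitals. The word of the TCF/LEF factors was CTTTGA. That of RBPJ, the DNA-binding partner of Notch, was TGGGAA. The GATA word was AGATAA. The RUNX word was TGTGGT. The E-box was CAGCTG. At Tcf7 the first stretch holds the summit of the progenitor B line and the second one is centered on the summit of Scid.adh.2C2, so that they show the different places at which H3K4me3 was highest. The third is centered on the stronger of the peaks found in Scid.adh.2C2 alone, and the fourth on an upstream peak found in both lines. At Lef1 the fifth stretch holds the summits of both lines, and the sixth is centered on the upstream peak that stood apart in Scid.adh.2C2 and lay inside the domain of the progenitor B line.
Tcf7 first coding exon of the long RefSeq models, chr11:52283015-52283179, minus strand: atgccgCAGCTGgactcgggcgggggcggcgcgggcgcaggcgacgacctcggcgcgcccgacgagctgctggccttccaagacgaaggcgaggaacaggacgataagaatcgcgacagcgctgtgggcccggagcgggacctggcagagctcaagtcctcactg
Tcf7 intron, Scid.adh.2C2 summit, chr11:52281484-52281683, minus strand: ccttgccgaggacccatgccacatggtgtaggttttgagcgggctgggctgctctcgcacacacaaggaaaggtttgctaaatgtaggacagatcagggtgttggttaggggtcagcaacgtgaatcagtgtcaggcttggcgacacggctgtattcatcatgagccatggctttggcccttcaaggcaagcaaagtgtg
Tcf7 upstream peak, Scid.adh.2C2 summit, chr11:52310738-52310937, minus strand: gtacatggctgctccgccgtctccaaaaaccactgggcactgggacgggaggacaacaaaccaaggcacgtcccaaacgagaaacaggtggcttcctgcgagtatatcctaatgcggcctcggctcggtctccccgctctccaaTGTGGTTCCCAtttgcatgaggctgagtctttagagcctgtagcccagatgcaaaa
Tcf7 upstream peak, progenitor B summit, chr11:52314188-52314387, minus strand: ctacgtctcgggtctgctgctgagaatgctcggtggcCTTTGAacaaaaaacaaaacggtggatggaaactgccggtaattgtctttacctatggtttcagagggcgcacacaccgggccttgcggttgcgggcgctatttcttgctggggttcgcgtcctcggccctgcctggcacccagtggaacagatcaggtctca
Lef1 intron, summits of both lines, chr3:131111679-131111878, plus strand: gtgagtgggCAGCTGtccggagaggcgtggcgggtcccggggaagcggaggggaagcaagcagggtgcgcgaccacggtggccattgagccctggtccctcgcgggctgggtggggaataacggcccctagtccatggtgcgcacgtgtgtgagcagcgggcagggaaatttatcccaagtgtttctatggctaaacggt
Lef1 upstream peak, Scid.adh.2C2 summit, chr3:131105820-131106019, plus strand: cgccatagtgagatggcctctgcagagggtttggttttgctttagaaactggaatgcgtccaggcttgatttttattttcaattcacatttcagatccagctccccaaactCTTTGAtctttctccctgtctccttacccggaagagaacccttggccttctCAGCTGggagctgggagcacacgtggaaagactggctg

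Tcf7 (ENSMUSG00000000782) lies on the minus strand of chr11:52252371-52283014. The H3K4me3 domain at its promoter was 10029 bp wide in Scid.adh.2C2 and 1332 bp wide in the progenitor B line. The wide domain ran from 2502 bp upstream to 7526 bp downstream of the most upstream GENCODE TSS (chr11:52275488-52285516), and its fold enrichment was 36.0. The progenitor B peak ran from 726 bp upstream to 605 bp downstream (chr11:52282409-52283740), with a fold enrichment of 15.2. The pro-T domain thus held the whole progenitor B peak, which made up 13.3% of it, and reached 1776 bp further upstream and 6921 bp further into the gene.

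By width, the Tcf7 domain ranked 2 of 15513 peaks in Scid.adh.2C2, where the widest peak of the list measured 11569 bp and overlapped no promoter or body of a protein-coding gene. It ranked 1 of 9980 genes with a promoter peak there, and 1 gene (0.01% of the marked genes) had a promoter peak of at least 10000 bp, which was Tcf7 itself. In the progenitor B line the Tcf7 peak ranked 9540 of 10570 genes with a promoter peak by width and 8939 by fold enrichment. Tcf7 was therefore among the widest domains of one line and among the narrower marked promoters of the other.

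The width ratio of Tcf7, Scid.adh.2C2 over progenitor B line, was 7.53. Over the 9261 genes marked in both lines the median ratio was 0.906, and the range from the 5th to the 95th percentile was 0.468 to 1.57. A promoter peak at least 2 times as wide in Scid.adh.2C2 was found for 150 of these genes (1.62%), and a ratio at least as large as that of Tcf7 for 2 genes (0.0216%). The gene other than Tcf7, named after its value was seen, was the histone gene Hist1h2bm, whose peaks measured 3681 bp and 473 bp. The fold enrichment of Tcf7 differed less than its width. Its ratio was 2.36, where the median over all genes marked in both lines was 1.25, and 255 of the 9261 genes had a ratio as large or larger.

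The summits of the 2 lines did not coincide at Tcf7. In the progenitor B line the summit lay 52 bp upstream of the GENCODE TSS, and in Scid.adh.2C2 it lay 1431 bp downstream of it, inside an intron, so that 1483 bp separated them. The Scid.adh.2C2 summit was 180 bp from the TSS of a predicted RefSeq model. The domain covered 24.6% of the gene body in Scid.adh.2C2 (7527 bp) and the peak covered 1.98% in the progenitor B line (606 bp). The stretch marked in both lines was rich in CpG dinucleotides. It had a GC content of 66.6% and 9.16 CpGs per 100 bp, an observed-to-expected CpG ratio of 0.826. The 8697 bp marked in Scid.adh.2C2 alone had a GC content of 52.8%, 1.87 CpGs per 100 bp and a ratio of 0.270. For comparison, all peaks of Scid.adh.2C2 had a median ratio of 0.510, and those of the progenitor B line one of 0.427. The narrow peak of the progenitor B line thus covered the CpG-rich start of the gene, and the pro-T domain extended well beyond it. The added sequence had a lower observed-to-expected CpG ratio than the median of whole peaks in Scid.adh.2C2, which include their CpG-rich parts.

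The lines also differed in the alternative start sites under H3K4me3. GENCODE gives 2 TSSs for Tcf7, 443 bp apart, and both lay inside the peak of each line. RefSeq gives 6 TSSs, of which 6 lay inside the Scid.adh.2C2 domain and 3 inside the progenitor B peak. The outermost RefSeq TSS, 369 bp upstream of the GENCODE one, belongs to predicted models, and their coding sequence starts at the first base of the first stretch printed above. That stretch begins at the start codon, not at the TSS, and was cut at the most upstream GENCODE TSS. That start codon, 165 bp upstream of the GENCODE TSS, was under H3K4me3 in both lines. These long models have coding lengths of 1110 to 1551 bp. The curated RefSeq transcripts have a coding length of 912 bp and start their coding sequence 797 bp downstream of the GENCODE TSS, a point that was inside the Scid.adh.2C2 domain and 192 bp outside the progenitor B peak.

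The remaining 3 RefSeq TSSs of Tcf7 belong to predicted models that start 1251, 3095 and 6248 bp downstream. They were covered in Scid.adh.2C2 alone and lay 646, 2490 and 5643 bp beyond the edge of the progenitor B peak. The TSS of A630014C17Rik, an antisense transcript, was also inside the pro-T domain, 567 bp from its edge, and lay 6354 bp outside the peak of the progenitor B line. H3K4me3 carries no strand, so that marks from internal Tcf7 starts and from the antisense start cannot be told apart, and no transcript was measured here.

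**Figure D1:**
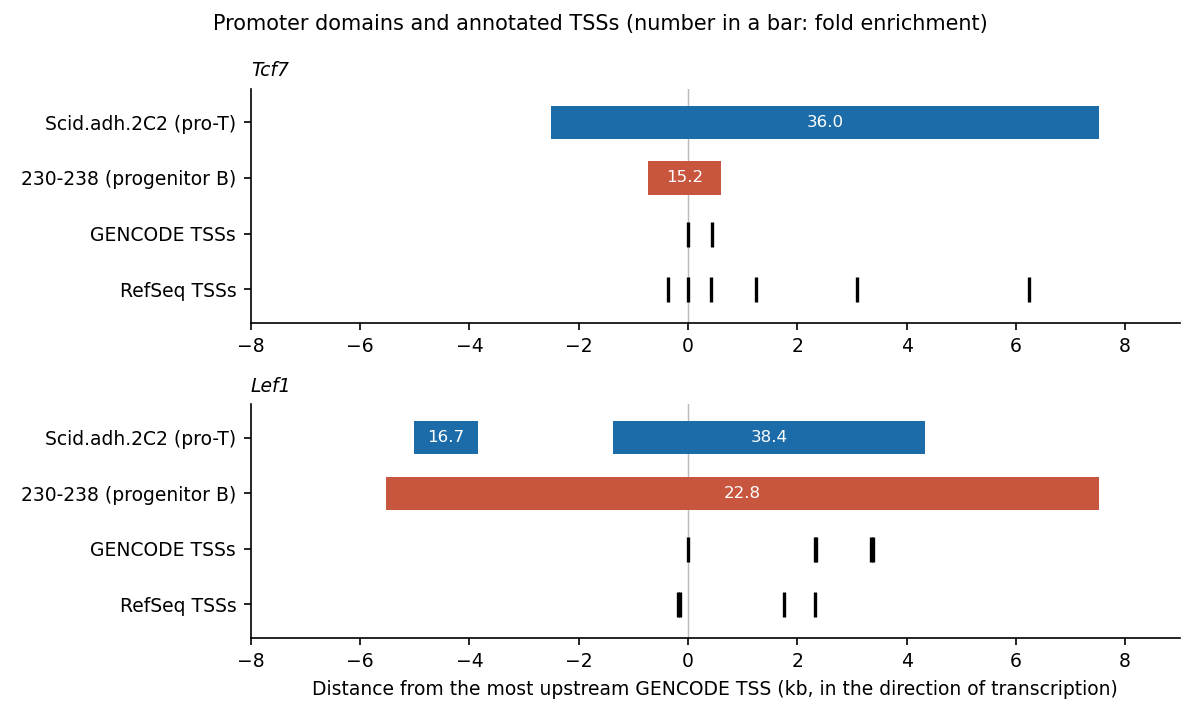
H3K4me3 peaks around the start of Tcf7 (top) and Lef1 (bottom). Horizontal bars span each peak in Scid.adh.2C2 (blue) and the progenitor B line (red), with the fold enrichment inside the bar; ticks mark annotated TSSs; the x axis is the distance from the most upstream GENCODE TSS in kb. The Tcf7 domain was 10029 bp in Scid.adh.2C2 and 1332 bp in the progenitor B line, and the Lef1 domain was 5722 bp and 13050 bp; the RefSeq TSS of Lef1 at 45.8 kb is outside the plot.

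Lef1 (ENSMUSG00000027985), on the plus strand of chr3:131110471-131224356, was marked in both lines and was wider in the progenitor B line, the reverse of Tcf7. Its domain was 13050 bp wide in the progenitor B line, from 5522 bp upstream to 7527 bp downstream of the most upstream GENCODE TSS (chr3:131104949-131117998), with a fold enrichment of 22.8. In Scid.adh.2C2 it was 5722 bp wide, from 1376 bp upstream to 4345 bp downstream (chr3:131109095-131114816), with a fold enrichment of 38.4. By width the progenitor B domain ranked 2 of 10570 marked genes, where 10 genes (0.0946%) had a promoter peak of at least 10000 bp. The Scid.adh.2C2 domain ranked 59 of 9980. By rank, Lef1 was therefore among the widest promoter domains in each line, while Tcf7 was so in Scid.adh.2C2 alone. The Lef1 domain of Scid.adh.2C2 did not reach 10000 bp.

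At Lef1 the narrower domain had the higher fold enrichment. Its fold enrichment ranked 578 of 9980 marked genes in Scid.adh.2C2 and 4486 of 10570 in the progenitor B line. The fold ratio, Scid.adh.2C2 over progenitor B line, was 1.68, at percentile 84.3 of the genes marked in both lines, within the range from the 5th to the 95th percentile of 0.687 to 2.11. The width ratio, progenitor B line over Scid.adh.2C2, was 2.28. A promoter peak at least 2 times as wide in the progenitor B line was found for 562 of the 9261 genes (6.07%), and a ratio at least as large as that of Lef1 for 389 (4.2%), Lef1 included. The width difference of Lef1 was thus shared by a larger group of genes than that of Tcf7.

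Unlike at Tcf7, the summits at Lef1 were 14 bp apart. They lay 1246 bp downstream of the most upstream GENCODE TSS in Scid.adh.2C2 and 1232 bp downstream in the progenitor B line, at the start of the intron printed above, which is also exonic for the antisense transcript Gm43352. In Scid.adh.2C2 a separate peak of 1176 bp lay upstream (chr3:131105451-131106626, fold enrichment 16.7), with its summit 4.55 kb from the TSS and a gap of 2468 bp to the domain. In the progenitor B line a single domain ran across this gap. It reached 502 bp beyond the upstream edge of the separate pro-T peak and 3182 bp beyond the downstream edge of the pro-T domain, so that both Scid.adh.2C2 peaks lay inside it and made up 52.9% of it. Counted from the outer edge of that upstream peak, the marked region was therefore closer in extent between the lines than the widths of the promoter domains alone.

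The 6898 bp of Lef1 marked in both lines had a GC content of 52.7% and 4.62 CpGs per 100 bp. The 6152 bp marked in the progenitor B line alone had 45.6% and 2.54. As at Tcf7, the stretches marked in 1 line were the poorer ones in CpGs, although the contrast was smaller, with observed-to-expected ratios of 0.667 and 0.489. Unlike at Tcf7, the ratio of these stretches was above the median of whole peaks of their list, 0.427 in the progenitor B line. The domain covered 6.61% of the Lef1 body in the progenitor B line and 3.82% in Scid.adh.2C2. Of 13 coding segments in GENCODE, 3 were overlapped by peaks in Scid.adh.2C2 and 4 in the progenitor B line, and the first one was fully covered in both lines.

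All 5 GENCODE TSSs of Lef1 lay inside the domain of each line, and 2 of these are starts of transcripts annotated as protein coding. RefSeq also gives 5 TSSs, and 4 of them lay inside both domains. Those include the TSSs 1756 and 2320 bp downstream, whose transcripts start their coding sequence 2341 bp downstream, while those of the outermost TSSs start theirs 1001 bp downstream. The remaining RefSeq TSS, that of a short curated transcript with a coding length of 651 bp, lies 45.8 kb into the gene. No peak was called there in either line, and the nearest peak edge was 41478 bp away in Scid.adh.2C2 and 38296 bp away in the progenitor B line. The start sites covered did not differ between the lines at Lef1, whereas 3 RefSeq starts did at Tcf7.

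**Figure D2:**
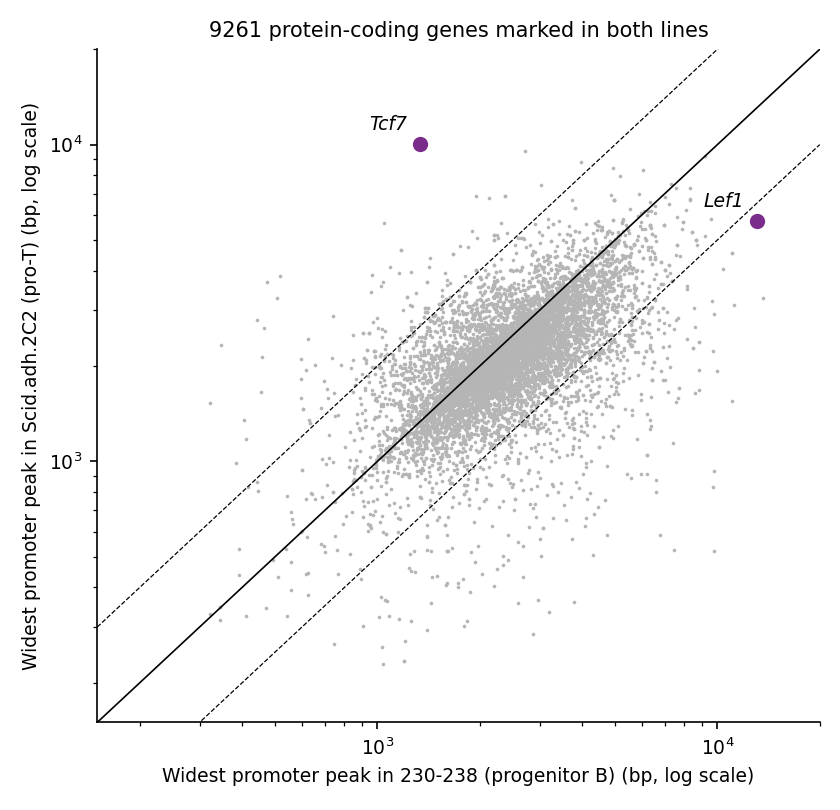
Width of the widest promoter peak in the progenitor B line (x axis, bp, log scale) and in Scid.adh.2C2 (y axis, bp, log scale) for the 9261 protein-coding genes marked in both lines, 1 grey point per gene; Tcf7 and Lef1 are in purple. The solid line marks equal widths and the dashed lines a ratio of 2 either way; Tcf7 lies above the upper line at a ratio of 7.53, and Lef1 below the lower line at 2.28 in favor of the progenitor B line.

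Beyond the promoters, the Tcf7 window held 8 peaks in Scid.adh.2C2 and 5 in the progenitor B line, which covered 22004 bp (9.54% of the window) and 9888 bp (4.29%). The median over equally built windows of all protein-coding genes was 4695 bp and 6388 bp. The pro-T line thus had the larger marked length at Tcf7, although its list has the smaller median. Distal peaks, which overlapped no promoter window of any annotated gene, numbered 5 of 8 in Scid.adh.2C2, where they made up 24% of the list, and 2 of 5 in the progenitor B line, where they made up 29.7%. All of them lay upstream of Tcf7, between its promoter and the Vdac1 promoter, and no peak was called in either line between the Tcf7 domain and Skp1a downstream.

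The distal peaks of Tcf7 were low against the domain. Peaks 17.2 kb upstream (chr11:52299200-52300743, fold enrichment 6.22) and 27.8 kb upstream (chr11:52310183-52311459, fold enrichment 12.2) were called in Scid.adh.2C2 without a partner in the progenitor B line, a partner being a peak that overlaps by at least 1 bp. These 2 of 8 peaks compare with 25.6% of all peaks of that list, and no Tcf7 peak of the progenitor B line lacked a partner, against 39.3% of its list. Among distal peaks alone, 62.4% of those of Scid.adh.2C2 and 76.6% of those of the progenitor B line had no partner, so that the count at Tcf7 is not above the background.

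About 31 kb upstream a pair of small peaks in Scid.adh.2C2, with summits at 31.2 kb (436 bp, fold enrichment 6.07) and 32.0 kb (308 bp, 6.05), overlapped a single peak of 981 bp in the progenitor B line (fold enrichment 7.15). A peak 36.0 kb upstream in Scid.adh.2C2 (1454 bp, fold enrichment 7.64) overlapped one of 957 bp in the progenitor B line (fold enrichment 7.36). These shared peaks were among the lower peaks of their lists, with percentiles by fold enrichment of 4.64, 4.54 and 13.2 in Scid.adh.2C2 and of 9.03 and 10.1 in the progenitor B line. The small pair also had the lowest reproducibility scores of the locus, 729 and 752 on a scale that ends at 1000.

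**Figure D3:**
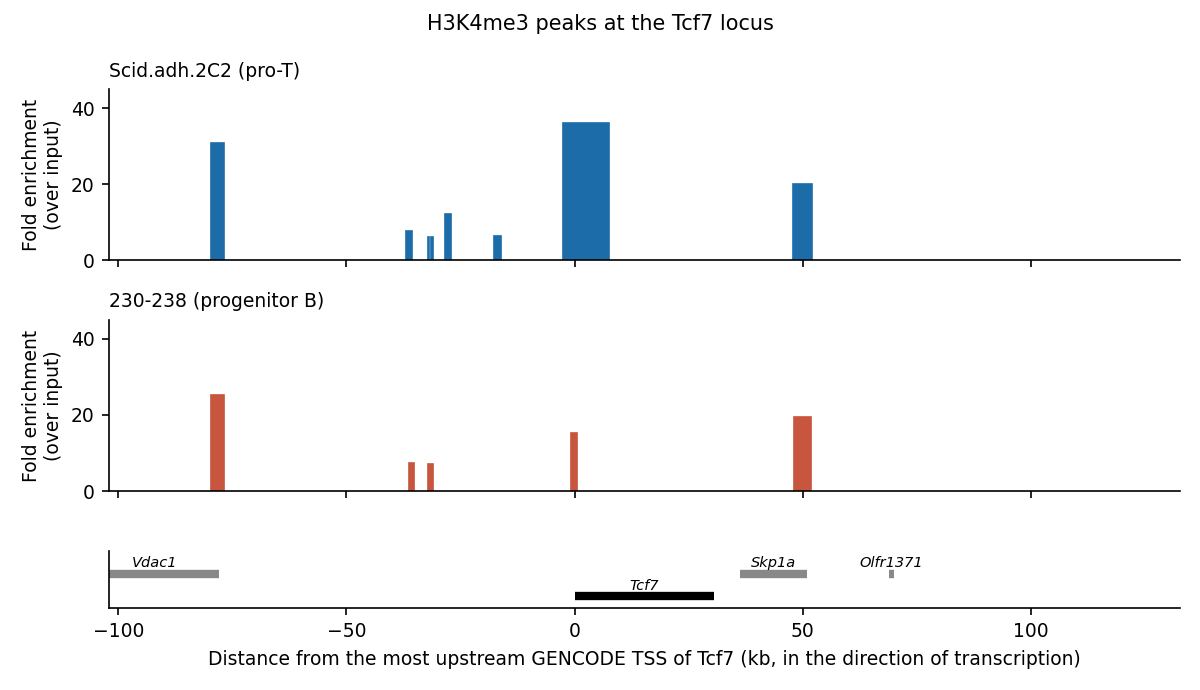
H3K4me3 peaks in the Tcf7 window of Scid.adh.2C2 (top, blue) and the progenitor B line (middle, red), with genes below (Tcf7 black, other protein-coding genes grey). Each bar spans a peak and its height is the fold enrichment; the x axis is the distance from the Tcf7 TSS in kb, in the direction of transcription. The promoter bar is 36.0 high in Scid.adh.2C2 and 15.2 in the progenitor B line, the bar of Vdac1 is 30.7 and 25.2 high, and that of Skp1a 20.1 and 19.6.

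The promoters next to Tcf7 served as a local comparison. The peak at Skp1a, a subunit of SCF ubiquitin ligases, was 4083 bp wide in Scid.adh.2C2 and 3645 bp in the progenitor B line, with fold enrichments of 20.1 and 19.6. The peak at Vdac1, a channel of the outer mitochondrial membrane, was 2873 bp and 2973 bp wide in the same order, with fold enrichments of 30.7 and 25.2. The width ratio, Scid.adh.2C2 over progenitor B line, was 1.12 at Skp1a, a value that 1500 of the 9261 genes marked in both lines reached, and 0.966 at Vdac1. Both lay within the range from the 5th to the 95th percentile, and that of Tcf7 lay above it. The olfactory receptor gene Olfr1371 had no peak in either line.

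The Lef1 window held 5 peaks in each line, which covered 11784 bp (3.75%) in Scid.adh.2C2 and 18396 bp (5.86%) in the progenitor B line. Every peak had a partner in the other line. Over the whole lists, 25.6% of the peaks of Scid.adh.2C2 and 39.3% of those of the progenitor B line had none. Far upstream, a peak 96.1 kb from the TSS measured 654 bp in Scid.adh.2C2 and 937 bp in the progenitor B line, with fold enrichments of 5.20 and 11.0. A peak about 91 kb upstream measured 1992 bp and 1834 bp, with fold enrichments of 20.3 and 18.2. Both lie between genes, nearest to the TSS of A430072C10Rik, which is 6885 bp from the summit of the latter in Scid.adh.2C2.

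At the far end of the Lef1 window, the promoter of Hadh, a mitochondrial enzyme of fatty acid oxidation, held 1 peak of 2240 bp in Scid.adh.2C2 (fold enrichment 39.7). In the progenitor B line it held 2 peaks, of 1204 bp and 1371 bp, with fold enrichments of 10.6 and 26.5. The widest single peak of Hadh was wider in Scid.adh.2C2, with a ratio of 1.63, but the 2 peaks of the progenitor B line were 74 bp apart and together spanned 2649 bp, so that the direction turned when they were joined. Cyp2u1 had no peak in either line.

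**Figure D4:**
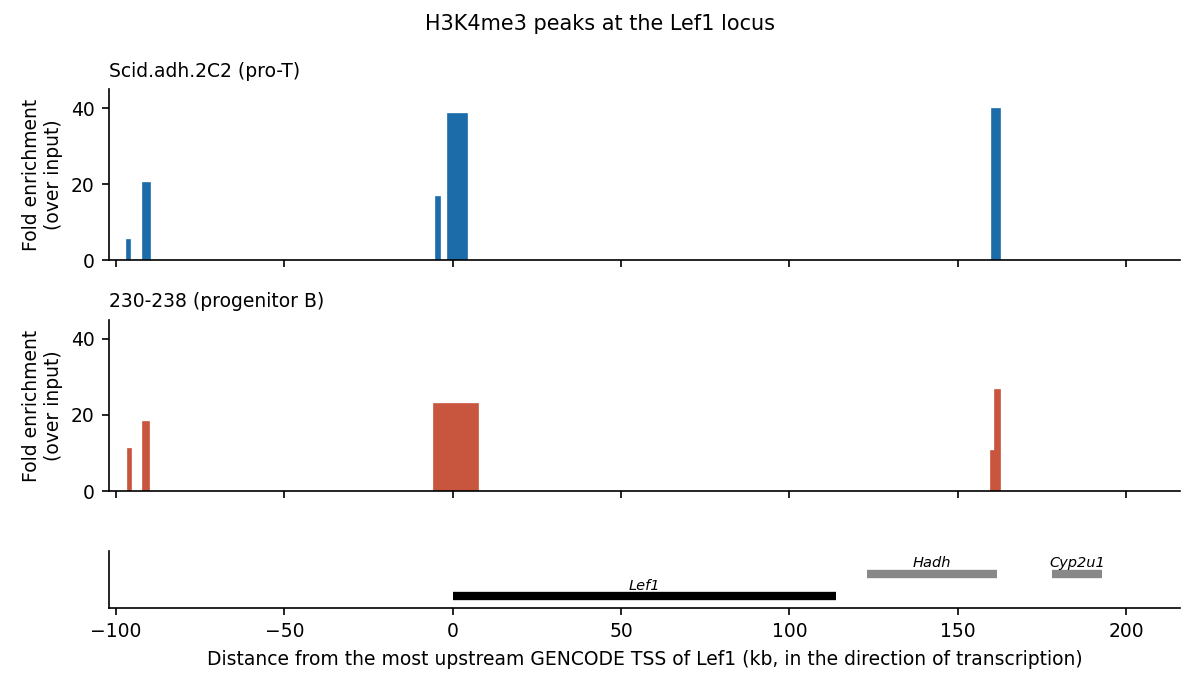
H3K4me3 peaks in the Lef1 window of Scid.adh.2C2 (top, blue) and the progenitor B line (middle, red), with genes below (Lef1 black, other protein-coding genes grey). Each bar spans a peak and its height is the fold enrichment; the x axis is the distance from the Lef1 TSS in kb, in the direction of transcription. The Lef1 bar is 38.4 high and 5722 bp wide in Scid.adh.2C2, and 22.8 high and 13050 bp wide in the progenitor B line; no bar lies inside the rest of the gene body.

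The windows end 100 kb from each gene. The outermost Tcf7 peak inside was that of Vdac1, and the next one upstream, at 9530068E07Rik, lay 12.6 kb outside in both lines, with fold enrichments of 27.0 and 27.6. Downstream of Tcf7 the next peak was that of Ppp2ca, 51.0 kb outside in Scid.adh.2C2 and 50.6 kb in the progenitor B line. The outermost Lef1 peaks inside were that 96.1 kb upstream and that of Hadh. The next one lay 30.8 kb outside on the upstream side in Scid.adh.2C2, with a fold enrichment of 9.34, and 9.49 kb outside on the downstream side in the progenitor B line, with a fold enrichment of 12.3.

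The printed sequences hold few of the searched words. In windows of 200 bp around all summits, CTTTGA was found in 10.5% of the Scid.adh.2C2 peaks and 11.2% of the progenitor B peaks, TGGGAA in 17.6% and 18.8%, TGTGGT in 12.2% and 13.0%, CAGCTG in 11.4% and 10.9%, and AGATAA in 7.05% and 8.12%. At Tcf7, the window of the pro-T peak 27.8 kb upstream held a RUNX and an RBPJ word that overlap by 1 base, printed as 1 run of capitals. The windows of the peaks 17.2 kb upstream (Scid.adh.2C2 alone) and about 36 kb upstream (both lines), not printed, held none of the 5 words. At the shared peak 31.3 kb upstream, the window around the progenitor B summit held a TCF/LEF word, the one that TCF1 and LEF1 themselves recognize. The summit windows of the overlapping pair of Scid.adh.2C2 peaks held no TCF/LEF word, and that of the wider peak held a RUNX word. The same TCF/LEF word nevertheless lies inside that wider peak, outside its summit window, so that it was marked in both lines. The intronic summit of the pro-T domain held none of the 5 words, and neither did the window of 200 bp around the progenitor B summit, since the E-box in the printed coding stretch lies outside it. At Lef1, the intron under both summits held an E-box, and the separate pro-T peak upstream held a TCF/LEF word and an E-box. Further upstream, the summit windows of the peak about 91 kb away held none of the words in either line. Those of the peak about 96 kb away held 1 TCF/LEF word in Scid.adh.2C2 and 2 in the progenitor B line. A match does not show that a factor binds there.

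Other genes of the canonical Wnt pathway were compared by a list ordered by role, which held no Wnt ligand genes. Of the TCF/LEF family, Tcf7 and Lef1 were marked in both lines, as were 42.2% of all protein-coding genes (45.5% in Scid.adh.2C2 and 48.2% in the progenitor B line), while Tcf7l1 and Tcf7l2 had no promoter peak in either line. Of the 45 listed genes outside the family, 20 were marked in both lines, 7 in the pro-T line alone, 5 in the progenitor B line alone and 13 in neither. Over all protein-coding genes the shares marked in 1 line were 3.28% for the pro-T line and 5.96% for the progenitor B line. No other gene of the list had a domain like those of Tcf7 and Lef1. The widest promoter peak was 4517 bp at Gsk3b, a kinase of the β-catenin destruction complex, in Scid.adh.2C2, and 4768 bp at Tle3 in the progenitor B line. This holds for the list only. The ligand gene Wnt10a, outside it, had a peak of 5404 bp in the progenitor B line and 911 bp in Scid.adh.2C2. Those of Wnt6 measured 1036 bp and 3680 bp in the same order.

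Among listed partners of TCF1 and LEF1, 1 of 2 catenins, 3 of 4 coactivators and 6 of 9 corepressors were marked in both lines. Over all protein-coding genes this share was 42.2%. Ctnnb1, which encodes β-catenin, had peaks of 2525 bp in Scid.adh.2C2 and 2936 bp in the progenitor B line, with fold enrichments of 26.6 and 16.0. The coactivators Bcl9, Bcl9l and Pygo2 were marked in both lines, and Pygo1 and the catenin gene Jup in neither. Of the 9 corepressors 6 were marked in both lines, Tle1 and Tle3 in the progenitor B line only, and Ctbp2 in neither. Tle5, listed as Aes in the annotation, was 2.15 times as wide in Scid.adh.2C2 and Tle4 2.01 times as wide in the progenitor B line, the extremes of the 20 genes, whose median width ratio, Scid.adh.2C2 over progenitor B line, was 0.870. The ratio of Tcf7 was thus above, and that of Lef1 below, those of all 20.

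Upstream in the pathway the Frizzled receptor genes Fzd4, Fzd5 and Fzd10 and the coreceptor gene Lrp5 were marked in the pro-T line alone, Fzd7 in the progenitor B line alone, Lrp6 in both, and 6 receptor genes in neither. Of 10 genes of cytoplasmic components 7 were marked in both lines. Axin1 and Axin2, which encode scaffolds of the destruction complex, were marked in the pro-T line alone, with peaks of 2838 bp and 2630 bp, and Apc2 in the progenitor B line only. Among 8 feedback regulators and targets, Rnf43 and Znrf3 were marked in both lines, Lgr5 in Scid.adh.2C2 only, Nkd1 in the progenitor B line only, and 4 in neither.

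**Figure D5:**
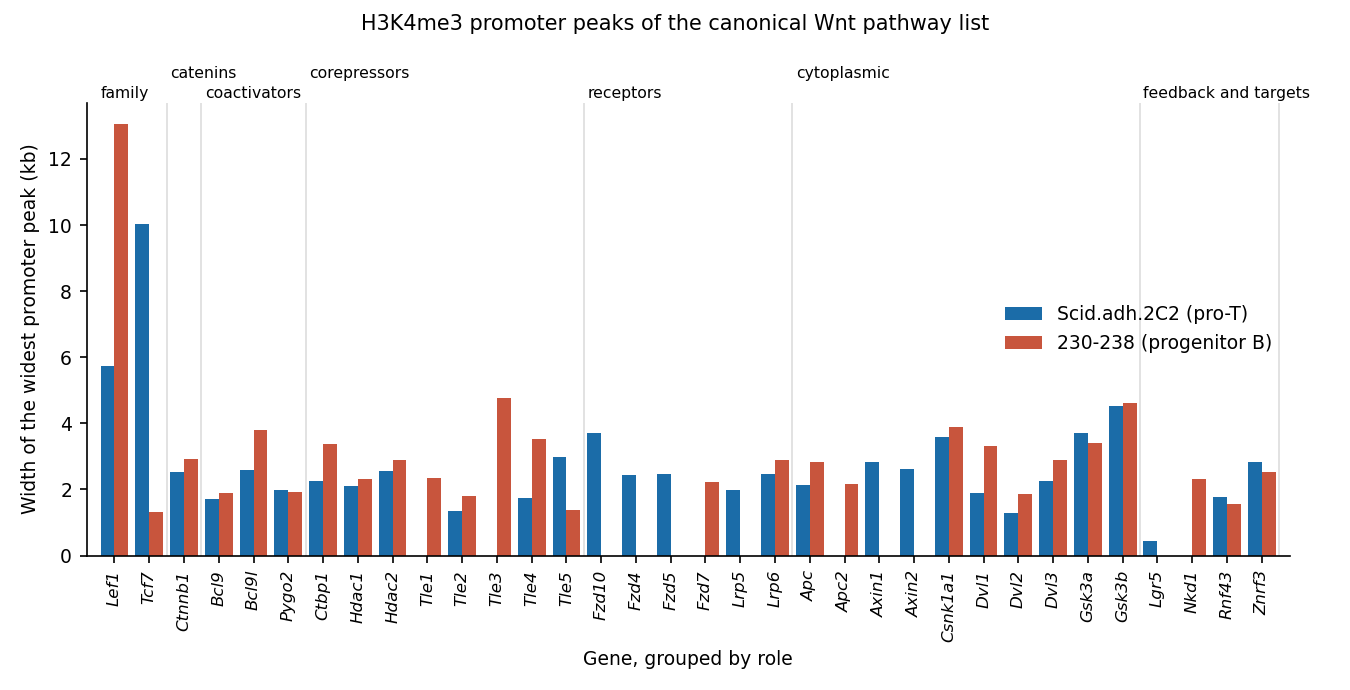
Width of the widest promoter peak (y axis, kb) of each gene of the Wnt pathway list that was marked in at least 1 line, grouped by role along the x axis, in Scid.adh.2C2 (blue) and the progenitor B line (red); a missing bar means no peak. Lef1 reaches 13050 bp and Tcf7 10029 bp, while no other gene of the list, which holds no Wnt ligand genes, exceeds 4768 bp.

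The genes most like each member were named by the distance between their percentiles for width and fold enrichment in both lines, 4 values per gene over all 21951 genes. For Tcf7 the nearest was Cd3d, a chain of the T-cell receptor complex, at a distance of 4.50 percentile points. The widest of its 2 promoter peaks in each line was 5672 bp in Scid.adh.2C2 and 1048 bp in the progenitor B line, with highest fold enrichments of 38.0 and 16.8. The wide peak in Scid.adh.2C2 is shared with Cd3g, which had no promoter peak in the progenitor B line. Hspa9, Hist1h4k, Wnt6 and Hist1h2ac followed, and among these 5 genes the width in Scid.adh.2C2 ran from 3058 bp to 5672 bp, below that of Tcf7. For Lef1 the nearest were Ankrd13b (2.49 percentile points), Scd2, Hnrnpf, BC005537 and Dnajc2. Scd2, a stearoyl-CoA desaturase, had peaks of 7297 bp and 7571 bp, and none of the 5 reached the width of Lef1 in the progenitor B line.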

How the data were processed

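H3K4me3 ChIP-seq libraries of Scid.adh.2C2 and the progenitor B line (2 per line, with 1 input each) were trimmed by the authors with Trim Galore (0.6.7) and mapped to mm10 (GRCm38) with Bowtie2 (2.4.4). Peaks were called with MACS2 (2.2.7.1) against the input in narrow mode at a q-value of 0.05 and kept by IDR at 0.05, and both replicates were combined. The deposited lists give peak positions, a score (scaled IDR, at most 1000), a fold enrichment ratio, −log10 p-values and −log10 q-values, all from the authors' callers and used unchanged. They hold no read counts, so that the depth is unknown, a broad domain may be split by narrow calling, and a missing peak means only that none passed these thresholds.

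Here peaks were matched to genes and TSSs of GENCODE M21 on GRCm38, with RefSeq TSSs added after seeing the data, in Python (3.11.15) with numpy (2.4.6), pandas (2.3.3) and matplotlib (3.10.9). A promoter was marked when a peak overlapped the 2500 bp either side of a TSS. Width is that of the widest such peak and fold that of the highest. Neighbouring genes can share a peak. Interval code was tested on simulated data. The named genes were the members, the protein-coding genes with a TSS in the windows, the Wnt list by role, and the 5 genes nearest to each member by percentile distance. The members and lists were chosen with earlier results of these data known. Matches to a word are given beside the share of all summit windows.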

Additional observations from a re-analysis of the deposited data

How the results depend on the processing

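The widths and fold enrichments of the promoter domains of Tcf7 and Lef1 stayed at their values under each alternative promoter window, the most upstream TSS alone and, for width, merging of peaks within 1000 bp. These settings could hardly move them. Each domain covers the most upstream TSS, and no other peak lay within 1000 bp of a domain. Of 136 alternative values 109 moved by less than 1.5 times (counts and lengths) or stayed the same, and the values that could hardly move are among these. With windows of 200 kb, the Tcf7 counts were 14 peaks in Scid.adh.2C2, 5 of them without a partner, and 8 peaks in the progenitor B line over 15420 bp, and Lef1 had 8 peaks over 18262 bp in Scid.adh.2C2, 3 without a partner, and 1 peak without a partner in the progenitor B line. With 50 kb, Lef1 had 3 peaks in each line. With peaks of at least 10-fold enrichment, Tcf7 had 4 peaks in Scid.adh.2C2, 1 without a partner, and 3 in the progenitor B line, and 1 Lef1 peak of the progenitor B line lost its partner. With equal numbers of peaks in both lists, Tcf7 had 3 peaks in the progenitor B line and 5 without a partner in Scid.adh.2C2, because the distal peaks of the progenitor B line fell out. With RefSeq, 6 TSSs of Tcf7 were covered in Scid.adh.2C2, and with protein-coding transcripts only, 2 of Lef1 in each line. The percentile of the domains by fold enrichment within their lists was 94.1 and 49.4 for Tcf7 in Scid.adh.2C2 and the progenitor B line, and 96.9 and 79.4 for Lef1. Among promoter peaks these became 91.9, 30.7, 95.8 and 69.6, and by −log10 q 96.2, 35.4, 97.4 and 92.0. No paired analysis was possible because each deposited list combines both replicates, and for the same reason no replicate could be left out. Depth is unknown, so that a peak present in 1 line only, such as that 17.2 kb upstream of Tcf7, cannot be told from one that was missed in the other line.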

Other observations

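Among the 5 widest peaks of each list, named after their values were seen, those of Scid.adh.2C2 included, after Tcf7, those of Bcl11b (9793 bp, fold enrichment 33.2), Nr3c1 (9565 bp, fold enrichment 24.1) and Gata3 (9343 bp, fold enrichment 32.8). Bcl11b and Gata3 encode transcription factors of T-lineage commitment, and Nr3c1 encodes the glucocorticoid receptor. In the progenitor B line the peak wider than that of Lef1 was at Slc7a5, an amino acid transporter (13580 bp, fold enrichment 15.9), and the next promoter peak was at Mgat1, an enzyme of N-glycan synthesis (11227 bp, fold enrichment 27.1).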
